A study of Homo sapiens with 6 samples.

Results

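The Notch receptors, ligands and target genes described here are NOTCH1, NOTCH2 and NOTCH3, the ligands JAG1, JAG2, DLL1 and DLL4, and the target genes HES1, HEY1 and NRARP. They were chosen by name, as the rows of the deposited gene table that carry one of these 10 symbols, of 19973 genes listed. RNA-seq was carried out on OVCAR3, an established human ovarian cancer cell line, to find the genes that differ after knockdown of NUF2, a component of the kinetochore complex that attaches chromosomes to the mitotic spindle. The control group, with the genotype labelled WT, carried the hairpin shNC, and the NUF2 knockdown group carried the hairpin shNUF2. Both groups were stable lines obtained by puromycin selection, so the controls share the transfection and the selection, and each group holds 3 libraries. Whether a line is 1 clone, and whether libraries of the same hairpin are from separate cultures, is not given in the sources used here, so the p-values measure the spread between libraries, which may be technical.

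Notch signaling passes between touching cells. A ligand of the Jagged or Delta-like family on one cell pulls on a Notch receptor on its neighbour, proteases of the ADAM family and γ-secretase then cut the receptor, and its intracellular domain moves to the nucleus. There it joins the DNA-binding protein RBPJ and a Mastermind coactivator and switches on genes such as HES1, HEY1 and NRARP, and in ovarian carcinoma the receptors and Jagged ligands are well known members of the pathway.

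The 6 libraries held between 13057534 and 16995452 counted reads, and 12874 genes passed the filter on low counts. NUF2, the targeted gene on chromosome 1, had 903, 1096 and 1092 reads in the shNC libraries against 281, 290 and 384 in the shNUF2 libraries. The NUF2 level fell by 1.51 on the log2 scale (SE 0.08, Benjamini-Hochberg adjusted p = 2.17e-15, edgeR's quasi-likelihood test), without overlap of the groups. In such bulk samples, fewer cells that express a gene and less RNA per cell cannot be told apart. Of 11 markers of ovarian carcinoma epithelium, KRT7, KRT8 and MSLN were strongly expressed in every library. CLDN3 had 0 reads in all 6 libraries, WT1 had 0 to 7 and KRT19 had 1 to 8. CDH1 and EPCAM were also low, at 9 to 33 and 44 to 91 reads per library. Within the list KRT8 and KRT18 rose (log2 fold changes 1.04 and 0.55, adjusted p = 3.22e-17 and 1.02e-10, edgeR), while MSLN and MUC16 fell (-0.75 each, adjusted p = 2.34e-14 and 1.90e-08). PAX8 and EPCAM also rose (0.64 and 0.69, adjusted p = 4.42e-05 and 0.0083, edgeR), and KRT7 also fell (-0.22, adjusted p = 0.00174). The summed FPKM (reads scaled to the gene length and to the total reads of the library) of these markers was 399 to 425 with shNC and 373 to 402 with shNUF2. The summed FPKM of 6 fibroblast markers was 9.44 to 10.1 with shNC and 7.36 to 8.23 with shNUF2, and that of 6 leukocyte markers was 0.681 to 0.957 and 1.59 to 2.40. Among these, COL1A2, LUM, CD3E and CD68 had at most 2 reads in any library and PTPRC had 0 to 11, and their part in the differences of the Notch genes was not tested.

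The members that could be tested differed between the groups, in both directions. Of the 9 members tested, 6 rose (NOTCH1, NOTCH2, JAG1, DLL4, HES1 and HEY1) and 3 fell (NOTCH3, JAG2 and NRARP) at an adjusted p under 0.05, and DLL1 was left out by the filter. DLL4 passed the filter only through the shNUF2 libraries, where it is high, so its call is no support for a direction of the members. Of all genes tested, 33.9% rose and 33.8% fell by the same rule, so that a call by itself sets no gene apart in these libraries. By the thresholds of the study, a log2 fold change above 1 or below -1 with an unadjusted p under 0.05, 3 members were higher (NOTCH1, JAG1 and DLL4), against 9.41% of all genes tested, and 0 were lower, against 4.16%. With at least 1 CPM required in every library, DLL4 was not tested and 2 members were higher. The median log2 fold change of the 9 members tested was 0.31, and that of all genes tested was -0.01. The normalized counts of the groups did not overlap for any of the 10 members, nor for 70.6% of all genes tested.

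**Figure D1:**
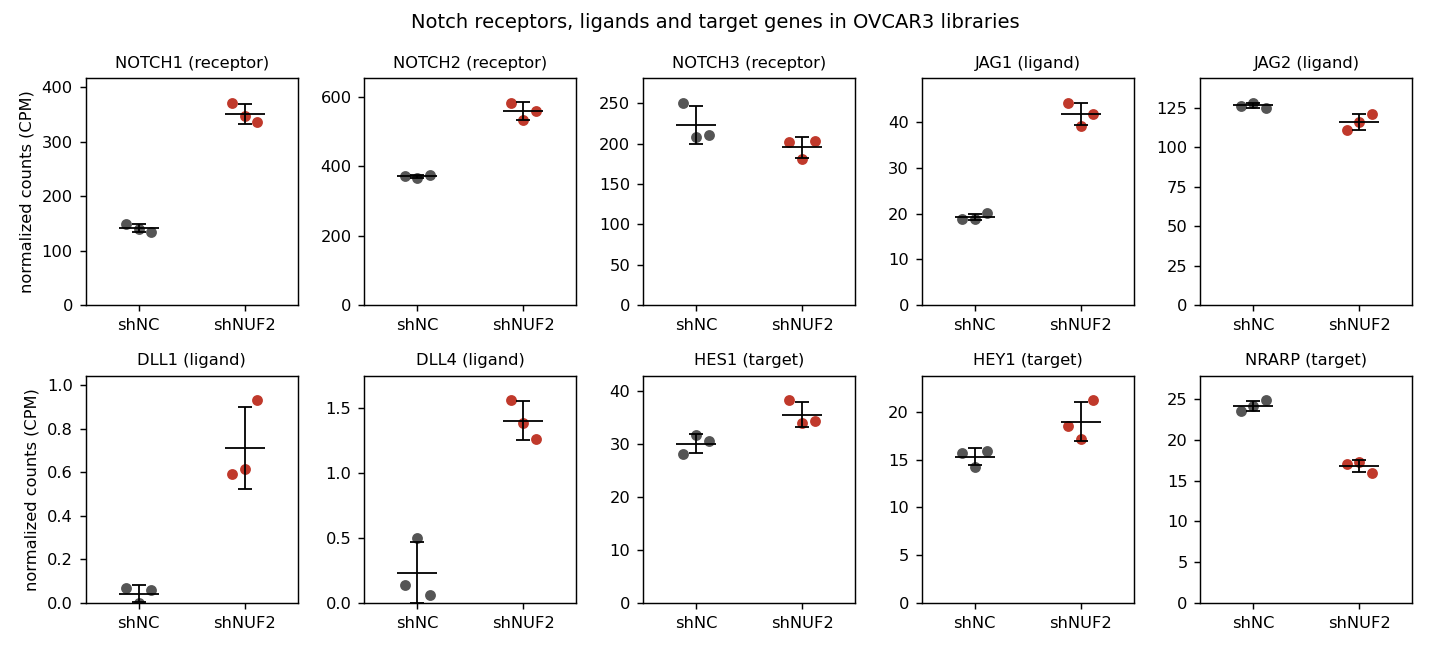
Normalized counts (CPM, reads scaled to a common library size) of the 10 members in each library, with 1 panel per gene and a vertical axis from 0. Points are libraries, the horizontal line is the mean of 3 and the bars are 1 SD. NOTCH1 sits near 141 with shNC and near 351 with shNUF2, while NRARP sits near 24.1 and 16.8.

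NOTCH1 (ENSG00000148400) lies on the minus strand of chromosome 9 from 136494433 to 136546048 in GRCh38, and encodes the receptor first tied to human cancer in T cell leukemia. Its normalized counts were 148, 140.4 and 135 CPM in the shNC libraries and 371, 347 and 335 CPM in the shNUF2 libraries. Each shNUF2 library was above every shNC library, with a gap many times wider than the spread inside either group. The mean was 141 ± 7.02 CPM with shNC and 351 ± 18.4 CPM with shNUF2 (SD, n = 3 each). NOTCH1 rose 2.49-fold, a log2 fold change of 1.32 (SE 0.05, adjusted p = 2.01e-18, edgeR's quasi-likelihood test). Ranked by log2 fold change it stood at place 782 of the 12874 genes tested, counted from the largest increase.

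NOTCH2 (ENSG00000134250), a receptor with an architecture close to that of NOTCH1, lies on the minus strand of chromosome 1 from 119911553 to 120100779. It had 372, 365 and 375 CPM with shNC and 582, 532 and 559 CPM with shNUF2. The groups did not overlap, and the shNC libraries in particular were tightly placed at 371 ± 5.16 CPM, against 558 ± 24.97 CPM with shNUF2 (SD, n = 3 each). NOTCH2 rose 1.51-fold (log2 fold change 0.59, SE 0.04, adjusted p = 2.48e-12, edgeR's quasi-likelihood test), which is under the fold threshold of the study. NOTCH2 has shorter paralogs, the NOTCH2NL genes, and reads from the sequence they share with NOTCH2 can be split or dropped in counting. The reads counted on NOTCH2NLA, NOTCH2NLB, NOTCH2NLC and NOTCH2NLR together came to 2.33%, 1.955% and 1.74% of the NOTCH2 reads with shNC and 0.956%, 1.01% and 0.880% with shNUF2. NOTCH2NLC held most of them, with 111, 101 and 102 reads in the shNC libraries against 63, 66 and 61 in the shNUF2 libraries. NOTCH2NLC fell by 0.54 on the log2 scale (SE 0.19, adjusted p = 0.0135, edgeR), a call lost without shNC replicate 1 (-0.42, adjusted p = 0.0812) and without shNUF2 replicate 3 (-0.45, adjusted p = 0.0636). NOTCH2NLA had 4 to 13 reads per library and an adjusted p of 0.808 in edgeR, and NOTCH2NLB and NOTCH2NLR had at most 1 read.

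NOTCH3 (ENSG00000074181), the receptor best known from vascular smooth muscle and also amplified in some ovarian carcinomas, lies on the minus strand of chromosome 19 from 15159038 to 15200995. It had 251, 208 and 211 CPM with shNC and 203, 181 and 204 CPM with shNUF2. The groups were separated by a narrow gap only, from 204 CPM in the highest shNUF2 library to 208 CPM in the lowest shNC library, and shNC replicate 1 stood above the other 5 libraries. NOTCH3 fell by 0.19 on the log2 scale (SE 0.06, adjusted p = 0.00671, edgeR's quasi-likelihood test). The call was lost without shNC replicate 1 (log2 fold change -0.10, adjusted p = 0.0800) and without shNUF2 replicate 2 (-0.13, adjusted p = 0.0702).

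The balance between the receptors can be read inside each library, where it does not depend on the scaling of library sizes. The ratio of NOTCH1 FPKM to NOTCH3 FPKM was 0.524, 0.598 and 0.564 with shNC and 1.62, 1.70 and 1.45 with shNUF2. NOTCH1 was thus below NOTCH3 per length in every shNC library and above it in every shNUF2 library. The mean ratio was 2.83 times higher with shNUF2, and the exact two-sided permutation p was 0.10, the smallest that 3 libraries against 3 allow. Of the summed FPKM of NOTCH1 to NOTCH4, which was 56.3 ± 2.99 with shNC and 80.8 ± 2.80 with shNUF2, NOTCH1 held 23.9% ± 0.650 with shNC and 40.3% ± 1.39 with shNUF2. NOTCH3 held 42.6% ± 2.05 and 25.4% ± 1.13. The share of NOTCH2 was 33.5% ± 1.82 and 34.2% ± 0.295, and its groups overlapped (exact permutation p = 0.90). NOTCH4, the receptor typical of endothelium, had 7, 3 and 4 reads in the shNC libraries against 16, 9 and 4 in the shNUF2 libraries, and it did not pass the filter.

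JAG1 (ENSG00000101384), the Jagged ligand whose loss of 1 copy causes Alagille syndrome, lies on the minus strand of chromosome 20 from 10637684 to 10673999. It had 18.9, 18.9 and 20.1 CPM with shNC and 44.2, 39.2 and 41.8 CPM with shNUF2. The groups were far apart, at 19.3 ± 0.661 CPM and 41.7 ± 2.49 CPM (SD, n = 3 each). JAG1 rose 2.16-fold (log2 fold change 1.11, SE 0.08, adjusted p = 6.36e-12, edgeR's quasi-likelihood test). In GENCODE release 29, 79 exon bases of JAG1 are shared with the antisense gene AL050403.2, and the libraries were made with a stranded kit, but whether the counting used strand is not given in the sources used here.

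JAG2 (ENSG00000184916), the second Jagged ligand, lies on the minus strand of chromosome 14 from 105140982 to 105168824. It had 126, 128 and 125 CPM with shNC and 111, 116 and 121 CPM with shNUF2. The shNUF2 libraries were all lower, but the gap between the groups was narrower than the spread among the shNUF2 libraries. JAG2 fell by 0.12 on the log2 scale (SE 0.05, adjusted p = 0.0274, edgeR's quasi-likelihood test), a difference close to the threshold. The call was lost in 5 of 15 alternatives, among them DESeq2's Wald test (-0.11, adjusted p = 0.0745) and the fits without shNC replicate 2 (-0.11, adjusted p = 0.0792), without shNUF2 replicate 1 (-0.09, adjusted p = 0.124) and without shNUF2 replicate 2 (-0.12, adjusted p = 0.0527). JAG2 shares 469 exon bases with AL512356.1 on the same strand.

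Against JAG2, the level of JAG1 was higher in every shNUF2 library. The ratio of JAG1 FPKM to JAG2 FPKM was 0.103, 0.102 and 0.110 with shNC and 0.274, 0.233 and 0.237 with shNUF2, so JAG2 remained the more abundant of the pair per length in all 6 libraries. The summed FPKM of the ligands JAG1, JAG2, DLL1, DLL3 and DLL4 was 23.6 ± 0.659 with shNC and 24.4 ± 0.896 with shNUF2, with overlapping groups (exact permutation p = 0.30). Of that sum, JAG1 held 8.91% ± 0.529 with shNC and 18.2% ± 1.38 with shNUF2, and JAG2 held 84.7% ± 1.24 and 73.4% ± 1.10 (n = 3 each).

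DLL4 and DLL1 were at the edge of detection. DLL4 (ENSG00000128917, chromosome 15, plus strand, 40929340 to 40939073), the ligand that restrains sprouting of blood vessels, had 2, 8 and 1 reads in the shNC libraries against 21, 18 and 19 in the shNUF2 libraries. All shNUF2 libraries were above all shNC libraries. In normalized counts this was 0.233 ± 0.235 CPM and 1.40 ± 0.148 CPM (SD, n = 3 each). DLL4 rose, with a log2 fold change of 2.55 (SE 0.54, adjusted p = 1.61e-04, edgeR's quasi-likelihood test). Over the summed reads, 11 with shNC and 58 with shNUF2, the ratio per counted read was 6.02 (95% exact interval 3.13 to 12.7, for counting error only). The fitted log2 fold change was 3.75 without shNC replicate 2, the library that held 8 of the 11 reads, and still passed the test.

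DLL1 (ENSG00000198719, chromosome 6, minus strand, 170282206 to 170306565), a Delta-like ligand needed for somite patterning, had 1, 0 and 1 reads in the shNC libraries against 8, 8 and 14 in the shNUF2 libraries. The shNC libraries were all under the 3 reads that a count of 0 allows. The ratio of the summed reads, 2 with shNC and 30 with shNUF2, was 17.1 per counted read (95% exact interval 4.34 to 148, for counting error only). Without the filter on low counts the adjusted p of DLL1 in edgeR was 3.98e-04.

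More genes had at least 1 read in the shNUF2 libraries, 15435 to 15536, than in the shNC libraries, 14582 to 14691. Of 6 endothelial markers, which are listed because DLL4 and NOTCH4 are typical of that cell type, CDH5 had 1, 1 and 4 reads in the shNC libraries against 15, 19 and 27 in the shNUF2 libraries, and TIE1 had 1, 1 and 0 and then 16, 11 and 7. KDR and EMCN had 0 reads in 5 of the 6 libraries and 1 read in the other, and PECAM1 and VWF overlapped between the groups. The summed FPKM of the 6 was 0.236 to 0.450 with shNC and 0.635 to 0.832 with shNUF2. The part of these values in the difference of DLL4 and DLL1 was not tested.

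HES1 (ENSG00000114315), a repressor of the basic helix-loop-helix class and the most widely used readout of Notch activity, lies on the plus strand of chromosome 3 from 194136148 to 194138732. It had 28.1, 31.7 and 30.5 CPM with shNC and 38.3, 34.1 and 34.4 CPM with shNUF2. The groups did not overlap, but the gap between them was narrower than the spread inside either group. HES1 rose 1.18-fold (log2 fold change 0.24, SE 0.08, adjusted p = 0.0115, edgeR's quasi-likelihood test), from 30.1 ± 1.83 to 35.6 ± 2.33 CPM (SD, n = 3 each). The call was lost without shNC replicate 1 (0.19, adjusted p = 0.0619) and without shNUF2 replicate 1 (0.18, adjusted p = 0.0759).

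The promoter sequences of RefSeq (GRCh38.p14, from 250 bases before to 50 after each start) were searched on both strands for TGGGAA, the core of the RBPJ binding site, and for GTGGGAA, which contains it. An entry was matched for 8 of the 10 members, DLL1 and HEY1 being the exceptions. HES1 was the only member of the 8 with a match, at 85 bases before the start for GTGGGAA and at 84 and 70 bases for TGGGAA. Among all 35116 promoters, 24.0% held TGGGAA and 6.25% held GTGGGAA. Of the other 9 promoters of the HES and HEY family that were matched, 6 held TGGGAA and 4 held GTGGGAA. The stretch from 110 to 21 bases before the start is shown for HES1, for its relatives HES4 and HES5, which hold GTGGGAA at 77 and 81 bases before the start, and for NRARP, a target gene without a match. The sequences run 5′ to 3′ on the strand of the gene, and capitals mark GTGGGAA or TGGGAA. They lie at chr3:194136038-194136127 (plus strand), chr1:1000118-1000207 (minus), chr1:2530284-2530373 (minus) and chr9:137302292-137302381 (minus), in that order. A match is a description of the letters and not of binding, and no match says only that the letters are not in this window.
HES1: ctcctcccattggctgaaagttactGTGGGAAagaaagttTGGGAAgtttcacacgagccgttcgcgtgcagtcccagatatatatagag
HES4: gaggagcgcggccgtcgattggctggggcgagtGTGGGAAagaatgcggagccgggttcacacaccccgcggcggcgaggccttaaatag
HES5: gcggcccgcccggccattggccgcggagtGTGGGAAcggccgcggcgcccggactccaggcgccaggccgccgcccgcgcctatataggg
NRARP: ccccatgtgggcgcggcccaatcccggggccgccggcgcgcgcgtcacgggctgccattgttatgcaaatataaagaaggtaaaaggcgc

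Of the genes whose sequences stand beside that of HES1, neither HES4 nor HES5 passed the test. HES4 had 1161, 1159 and 2122 reads in the shNC libraries against 1664, 1302 and 1295 in the shNUF2 libraries, and the groups overlapped (log2 fold change 0.15, adjusted p = 0.278, edgeR). HES5 had 20 to 36 reads per library and an adjusted p of 0.574 in edgeR.

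NRARP (ENSG00000198435), a small ankyrin repeat protein that binds the Notch transcription complex and limits it, lies on the minus strand of chromosome 9 from 137299631 to 137302271. It had 23.5, 24.1 and 24.8 CPM with shNC and 17.1, 17.3 and 16.0 CPM with shNUF2. Both groups were tight and well apart, at 24.1 ± 0.665 and 16.8 ± 0.721 CPM (SD, n = 3 each). NRARP fell by 0.53 on the log2 scale (SE 0.10, adjusted p = 2.73e-05, edgeR's quasi-likelihood test), the opposite direction to HES1. It kept its call and direction in all 15 alternatives, from -0.56 to -0.49.

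HEY1 (ENSG00000164683), a repressor related to HES1 and best known from heart and blood vessel development, lies on the minus strand of chromosome 8 from 79762371 to 79767857. It had 15.7, 14.3 and 15.9 CPM with shNC and 18.5, 17.2 and 21.2 CPM with shNUF2. The groups did not overlap, with the highest value in shNUF2 replicate 3. HEY1 rose 1.24-fold (log2 fold change 0.31, SE 0.11, adjusted p = 0.0135, edgeR's quasi-likelihood test), and the call was lost without shNC replicate 2 (0.26, adjusted p = 0.0626) and without shNUF2 replicate 3 (0.22, adjusted p = 0.111).

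The 3 target genes did not all keep their ratios to each other, nor to NOTCH1. The ratio of HES1 FPKM to NRARP FPKM was 1.54, 1.69 and 1.58 with shNC and 2.88, 2.52 and 2.77 with shNUF2, without overlap (exact permutation p = 0.10). The ratio of HES1 to HEY1 was 5.27 ± 0.590 and 5.04 ± 0.626, with overlapping groups (exact permutation p = 0.70). Relative to NOTCH1 FPKM, all 3 target genes were lower in every shNUF2 library. The mean ratio of HES1 to NOTCH1 was 0.473 times that of shNC, that of HEY1 to NOTCH1 was 0.500 times, and that of NRARP to NOTCH1 was 0.279 times. A total of 22 such ratios, sums and shares were computed, and with 3 libraries against 3 none could reach an exact p under 0.10.

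**Figure D2:**
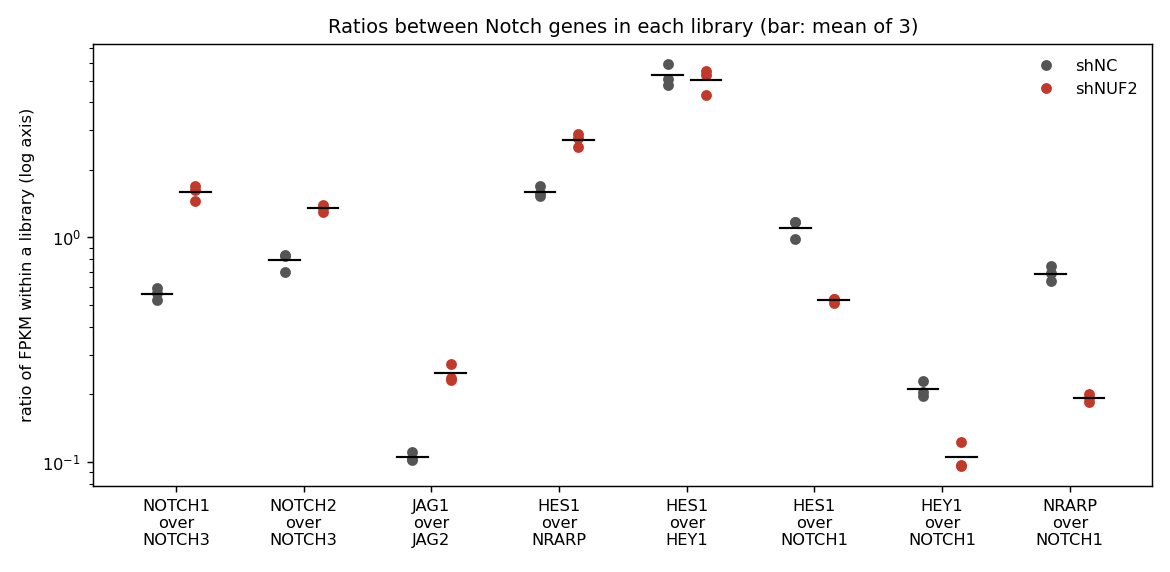
Ratios of FPKM between pairs of Notch genes inside each library, on a log axis, with points for libraries and a bar for the mean of 3. The ratios of NOTCH1 to NOTCH3 and JAG1 to JAG2 are higher with shNUF2, the ratios of the target genes to NOTCH1 are lower, and that of HES1 to HEY1 overlaps.

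Per length, NOTCH3 was the most abundant member with shNC at 24.0 ± 2.46 FPKM, followed by JAG2 (19.996 ± 0.326), NOTCH2 (18.8 ± 0.209), HES1 (14.8 ± 0.972), NOTCH1 (13.4 ± 0.630), NRARP (9.25 ± 0.278), HEY1 (2.82 ± 0.155) and JAG1 (2.10 ± 0.0723). In this order HES1 and NOTCH1 overlapped, and DLL4 and DLL1 came last, at 0.0498 and 0.0113 FPKM, also overlapping. With shNUF2 the order began with NOTCH1 (32.6 ± 1.49 FPKM), NOTCH2 (27.6 ± 0.981) and NOTCH3 (20.5 ± 1.21). JAG2 (17.9 ± 0.887) and HES1 (17.1 ± 0.961) overlapped, and NRARP (6.27 ± 0.281), JAG1 (4.43 ± 0.223), HEY1 (3.41 ± 0.365), DLL4 (0.291) and DLL1 (0.184) followed (SD, n = 3 each). NOTCH1 thus moved from the fifth place to the first, and JAG1 passed HEY1. Both of these moves depend on the gene length used. NOTCH2 has a deposited length of 19930 bp, against 11389 bp for its longest coding transcript in GENCODE release 29. With the latter lengths, an alternative chosen after the data were seen, NOTCH2 came first in both groups (32.5 and 49.0 CPM per kb), followed by NOTCH3 with shNC and by NOTCH1 with shNUF2 (25.8 and 37.7 CPM per kb), and HEY1 stood above JAG1 in both groups (6.66 and 3.25 CPM per kb with shNC, 8.26 and 7.03 with shNUF2).

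**Figure D3:**
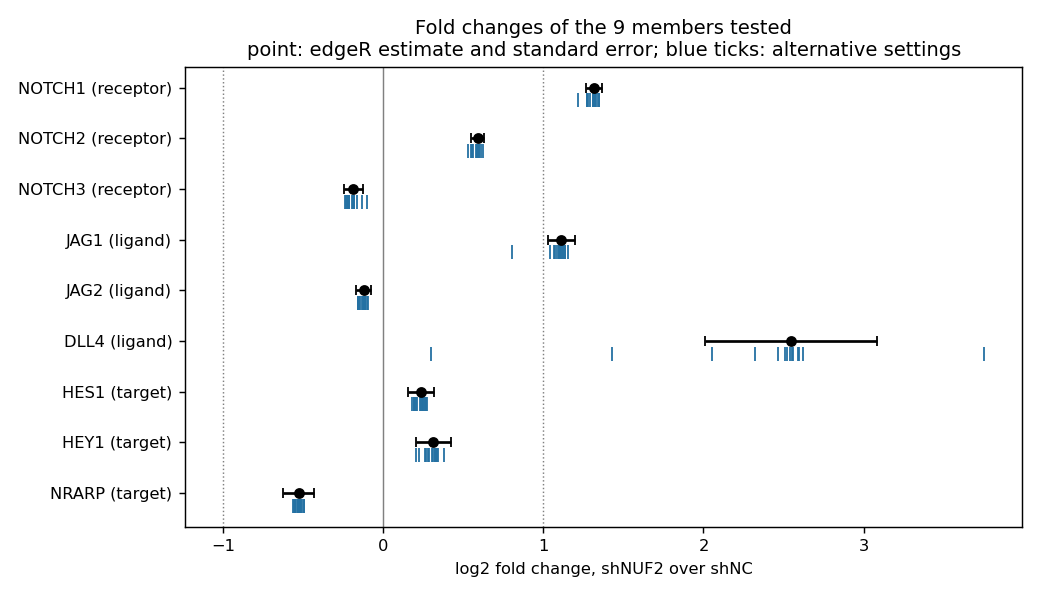
Log2 fold change of shNUF2 over shNC for the 9 members tested, with the edgeR estimate (point), its standard error (bar) and the values under the alternative settings (blue ticks). NOTCH1, JAG1 and DLL4 lie to the right of the dotted line at 1, NRARP, NOTCH3 and JAG2 lie below 0, and the alternatives of DLL4 spread from 0.30 to 3.75.

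The fold changes of the members kept their sign under every alternative run. Those of NOTCH1 ranged from 1.22 to 1.35, of NOTCH2 from 0.53 to 0.62 and of JAG1 from 0.81 to 1.15, and these 3 passed the test in all 15 alternatives. DLL4 passed it in the 14 alternatives that could test it. Its lowest value, 0.30, came from limma on log2(FPKM + 1), a scale that understates the change of a gene this low and on which JAG1 and DLL4 were both under the fold threshold of the study.

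A list of 75 other genes of the pathway was compiled by role. Of these, 67 were tested, 23 rose and 17 fell at an adjusted p under 0.05 in edgeR, beside 33.9% higher and 33.8% lower of all genes tested. The median log2 fold change was -0.02. By the thresholds of the study 5 were higher (DLK2, DNER, MAML2, NEURL1B and HEYL) and 1 was lower (BEND6), beside 9.41% and 4.16% of all genes tested. The counts by role below rest on 16 genes or fewer each and are given as descriptions. The 8 genes removed by the filter were NOTCH4, NOTCH2NLB, NOTCH2NLR, DLK1, DTX1, HES3, HEY2 and HELT.

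Of the atypical ligands, which lack the motif that canonical ligands use to activate the receptor, DLK1 was removed by the filter. Both genes tested rose, beside 33.9% of all genes tested, and both were higher by the thresholds of the study, beside 9.41%. DLK2 had 21, 17 and 13 reads in the shNC libraries against 70, 64 and 72 in the shNUF2 libraries, and rose by 2.19 on the log2 scale (SE 0.28, adjusted p = 1.20e-07, edgeR). DNER, best known from neurons, had 348, 421 and 442 reads in the shNC libraries against 865, 738 and 820 in the shNUF2 libraries, and rose by 1.195 (SE 0.08, adjusted p = 2.17e-13, edgeR). DLL3, a ligand that acts mainly inside the cell that makes it, had 43 to 71 reads per library and overlapping groups (adjusted p = 0.506, edgeR).

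Of the 6 glycosyltransferases, which add sugars to the extracellular part of the receptors and tune ligand binding, 3 fell and 0 rose, beside 33.8% and 33.9% of all genes tested. EOGT, which adds N-acetylglucosamine, had 417, 533 and 492 reads in the shNC libraries against 241, 205 and 249 in the shNUF2 libraries, and fell by 0.86 on the log2 scale (SE 0.10, adjusted p = 1.29e-08, edgeR). POGLUT1, the O-glucosyltransferase, fell by 0.62 (SE 0.11, adjusted p = 2.68e-05), and POFUT1, the O-fucosyltransferase, by 0.25 (adjusted p = 9.38e-05). The Fringe gene LFNG had a log2 fold change of -0.21 and did not pass the test (adjusted p = 0.0747, edgeR).

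Of the 9 proteases and γ-secretase subunits that cut the receptors, 3 rose, a share close to the 33.9% of all genes tested, and 1 fell, beside 33.8%. PSEN2, a catalytic subunit of γ-secretase, had 44, 45 and 44 reads in the shNC libraries against 74, 42 and 73 in the shNUF2 libraries, and rose by 0.69 on the log2 scale (SE 0.24, adjusted p = 0.0135, edgeR), a call lost without shNUF2 replicate 1 (0.53, adjusted p = 0.0875) and in limma on log2(FPKM + 1) and log2(FPKM + 0.1) (adjusted p = 0.111 and 0.0931). APH1B, an accessory subunit, rose by 0.58 (SE 0.14, adjusted p = 7.04e-04). FURIN, which cleaves the receptors during their maturation, fell by 0.27 (SE 0.05, adjusted p = 8.19e-06, edgeR). ADAM10, which cuts the receptor after ligand binding, and NCSTN, a γ-secretase subunit, had log2 fold changes of -0.02 and -0.03 and did not pass the test.

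Of the 9 genes of the nuclear activating complex, 3 rose and 2 fell, beside 33.9% and 33.8% of all genes tested. MAML2, a Mastermind coactivator, had 127, 105 and 108 reads in the shNC libraries against 286, 254 and 294 in the shNUF2 libraries, and rose by 1.48 on the log2 scale (SE 0.13, adjusted p = 1.92e-10, edgeR). MAML1 and MAML3 did not pass the test (log2 fold changes -0.08 and 0.04). RBPJ, the DNA-binding partner of the receptors, had 874, 988 and 1036 reads in the shNC libraries against 1265, 1088 and 1322 in the shNUF2 libraries, and rose by 0.53 (SE 0.06, adjusted p = 4.50e-09, edgeR).

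Corepressors hold RBPJ target genes silent or act with HES proteins. Of the 16 genes listed under this role, 6 rose and 6 fell, shares close to the 33.9% and 33.8% of all genes tested. BEND6, a neuronal RBPJ corepressor, had 38, 60 and 55 reads in the shNC libraries against 15, 28 and 15 in the shNUF2 libraries, and fell by 1.19 on the log2 scale (SE 0.31, adjusted p = 0.00140, edgeR). Of the listed genes of the Groucho family, TLE2 fell by 0.96 (SE 0.11, adjusted p = 1.98e-08, edgeR). The other listed members of that family rose, TLE1 by 0.92 (SE 0.07, adjusted p = 4.32e-12), TLE3 by 0.28, TLE4 by 0.39 and TLE5 by 0.31 (adjusted p = 1.83e-05, 0.00825 and 6.04e-06, edgeR). NCOR1, a general nuclear receptor corepressor, fell by 0.86 (SE 0.04, adjusted p = 1.56e-15, edgeR).

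Of the 16 tested genes of ligand endocytosis and receptor turnover, 7 rose and 3 fell, where 33.9% and 33.8% of all genes tested did. NEURL1B, a ubiquitin ligase that promotes endocytosis of ligands, had 331, 338 and 360 reads in the shNC libraries against 1072, 896 and 1086 in the shNUF2 libraries, and rose by 1.76 on the log2 scale (SE 0.07, adjusted p = 3.66e-17, edgeR). NUMB, which directs Notch receptors to degradation, had 795, 946 and 831 reads in the shNC libraries against 1229, 1107 and 1321 in the shNUF2 libraries, and rose by 0.70 (SE 0.06, adjusted p = 3.94e-10, edgeR). MIB1, the ubiquitin ligase most generally needed for ligand activity, had a log2 fold change of -0.01 and did not pass the test.

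In the rest of the HES and HEY family, 2 of 6 tested genes rose, close to the 33.9% of all genes tested, and 1 fell, beside 33.8%. HEYL, a HEY1 relative, had 1, 5 and 5 reads in the shNC libraries against 10, 9 and 12 in the shNUF2 libraries, with a log2 fold change of 1.65 (SE 0.58, adjusted p = 0.0144, edgeR), and its call was lost without shNC replicate 1 (1.28, adjusted p = 0.0809). HEYL too passed the filter only through the shNUF2 libraries, where it is high. HES7, the clock gene of somite formation, had 72, 66 and 98 reads in the shNC libraries against 147, 114 and 146 in the shNUF2 libraries, and rose by 0.98 (SE 0.17, adjusted p = 1.23e-05, edgeR). HES2 fell by 0.36 (SE 0.08, adjusted p = 2.35e-04, edgeR), and HES4, HES5 and HES6 did not pass the test.

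**Figure D4:**
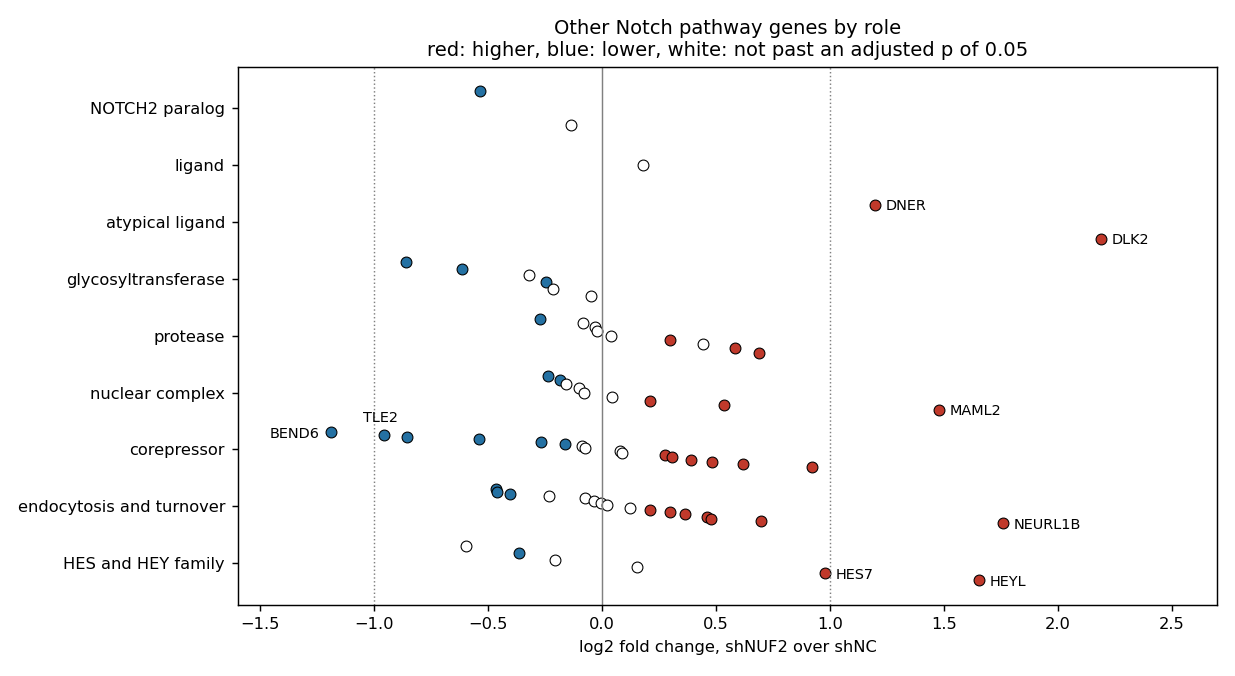
Log2 fold change of shNUF2 over shNC for the 67 other pathway genes tested, with 1 point per gene and 1 row per role. Red points rose, blue points fell and white points did not pass an adjusted p of 0.05, with the dotted lines at -1 and 1. The glycosyltransferases hold no red point, while both atypical ligands tested lie beyond 1. Of all genes tested, 33.9% rose and 9.41% were higher by the thresholds of the study.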

How the data were processed

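RNA-seq libraries of OVCAR3 cells with shNC or shNUF2 (3 each) were made with a stranded mRNA kit. The authors deposited read counts per gene, not normalized, with FPKM values and gene lengths for 19973 genes. The deposited FPKM equal the count divided by gene length and library total, with relative deviations no larger than 2.71e-07. The submitters' processing notes name cutadapt, HISAT, HTSeq and GRCh38.p13. Their versions, the annotation release and the handling of strand and multiply mapped reads are not given in the sources used here, so reads shared between paralogs or overlapping genes may have been split or dropped.

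Counts were filtered with filterByExpr (minimum count 10), normalized by TMM and compared with edgeR 4.0.16 in R 4.3.3 with its quasi-likelihood test in a single model of the 6 libraries, without covariates. P-values were adjusted by Benjamini-Hochberg over the 12874 genes tested. The SE was derived from the log2 fold change and the F statistic. CPM are per TMM-scaled library, and exact tests are two-sided permutations. The paper's RNA-seq methods name no test for differential expression, and their thresholds were read on the log2 scale. No libraries were identical, and replicates differed by more than counting noise. Alternatives were other scalings and filters, DESeq2 1.42.0, a replicate block, leaving out each library, and limma 3.58.1 on log2(FPKM + 1) and log2(FPKM + 0.1). The fits were also run on simulated counts in which a small share of well counted genes was changed. That run does not cover genes with as few reads as DLL4, DLL1 or HEYL.

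The members and lists were chosen with earlier results of these data known. The genes named are the 10 members, NUF2, the NOTCH2 paralogs and, per role, the 2 pathway genes with the largest change at an adjusted p under 0.05 and those past the thresholds of the study. DLL3, NOTCH4, POFUT1, LFNG, ADAM10, NCSTN, MAML1, MAML3, TLE1, TLE3, TLE4, TLE5, NCOR1, FURIN, MIB1, HES2, HES4, HES5, HES6 and single markers were named after their values were seen. Marker lists were of ovarian carcinoma epithelium, fibroblasts, endothelium and leukocytes. MAMLD1, a Mastermind-like protein, is counted among the endocytosis and turnover genes. The paper's tissue, mouse, protein and PCR data were not analysed here. Some genes of the pathway list are not reported here by name.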

Additional observations from a re-analysis of the deposited data

How the results depend on the processing

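Most recomputed counts and values (184) stayed within 1.5 times the value reported or on its side of the threshold. With at least 1 CPM in every library, the genes higher by the thresholds of the study numbered 756 in place of 1212, and the pathway genes 3 higher in place of 5 and 0 lower in place of 1. With limma on log2(FPKM + 1), a scale that shrinks low genes, the counts were 430 genes higher and 206 lower (536 reported), 1 member higher in place of 3, and 3 pathway genes higher and 0 lower. With limma on log2(FPKM + 0.1), 0 pathway genes were lower. Leaving out each library in turn gave 1 to 3 members lower at an adjusted p under 0.05, the 1 without shNUF2 replicate 2, where NOTCH3 and JAG2 were lost. It gave 0 to 2 pathway genes lower by the thresholds of the study, 0 without shNUF2 replicate 3 and 2 without shNC replicate 2 or shNUF2 replicate 2. The log2 fold change of NOTCH2NLA, -0.14, ranged from -0.38 to 0.18 with 1 library left out, turning positive without shNUF2 replicate 2, and passed the test in none of these fits. With the longest coding transcript as gene length, chosen after the data were seen, 7 members held the same place in both groups in place of 3. In all, 17 fits of single genes lost their call, mostly with 1 library left out, and the losses of NOTCH3 and JAG2 named above are among them.

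Libraries with the same replicate number did not deviate together (correlations of 0.02, 0.005 and -0.03 for numbers 1, 2 and 3). These values cannot tell whether libraries of the same number were prepared together. With the replicate block, 6 members were higher and 3 lower, as without it, 4349 genes rose and 4353 fell, and no tested member lost its call, nor did any called pathway gene named by the fixed rule. The genes named after their values were seen were not looked at one by one in this fit.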
